A study of Arabidopsis thaliana with 8 samples.

Results

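The genes described here are 10 loci of carbon fixation in Arabidopsis thaliana. They are the nuclear genes for the Rubisco small subunit (RBCS1A, AT1G67090; RBCS1B, AT5G38430; RBCS2B, AT5G38420; RBCS3B, AT5G38410), Rubisco activase (RCA, AT2G39730), and the chloroplast glyceraldehyde-3-phosphate dehydrogenase subunits (GAPA, AT3G26650; GAPB, AT1G42970). The others are phosphoribulokinase (PRK, AT1G32060), sedoheptulose-bisphosphatase (SBPASE, AT3G55800) and the beta carbonic anhydrase CA1 (AT3G01500). The members were chosen by name and function, and every non-control probe whose RefSeq transcript belongs to 1 of these loci was taken. That gave 56 of the 43603 non-control probes on the array and 10 of the 25426 loci with a probe. RBCS1A had 13 probes, RBCS1B 4, RBCS2B 5, RBCS3B 4, RCA 9, GAPA 4, GAPB 3, PRK 4, SBPASE 2 and CA1 8. Every one of the 56 probes was well above background on all 8 arrays, so no member was lost to the filter on dim probes.

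The study hybridised total RNA of the wild-type accession Columbia-0 to 8 one-colour arrays, and the labels give each of the 4 groups 2 biological replicates. The groups were whole plants with their roots at 2 days, the whole aerial part at 21 days, young leaves at 21 days (the newer 3 leaves) and mature leaves at 21 days (the older 3 leaves, cotyledons left out). Seeds of all groups were chilled in the dark (3 days, 4 °C) before growth on plates at 22 °C under a cycle of 16 h light and 8 h dark, and the labels name no transgene or treatment. The study compared the 21-day aerial part with the 2-day plant, in which age and organ differ together, and mature with young leaves.

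Rubisco binds CO2 to ribulose bisphosphate in the chloroplast stroma, and its small subunit, made in the cytosol and imported, completes the enzyme around the chloroplast-encoded large subunit. Activase removes sugar phosphates that block the active site. In the reduction phase of the Calvin-Benson cycle the GAPA and GAPB subunits use NADPH to make triose phosphate. SBPASE and PRK belong to the phase that regenerates ribulose bisphosphate, and carbonic anhydrase interconverts CO2 and bicarbonate. The small-subunit transcripts are among the most abundant messages of a green leaf.

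Levels below are log2 processed signals set against the 75th percentile on the same array, taken over non-control probes. Differences are limma estimates ± their standard error on the log2 scale, and p-values are adjusted by the Benjamini-Hochberg method over all 33313 probes tested. A probe is called higher or lower at an adjusted p below 0.05. Probes carry different sequences, so the level of a probe says nothing of RNA abundance beside another probe. Brightest and dimmest refer to the signal on the array only. The 4 RBCS coding sequences are close to one another, and RBCS3B, RBCS2B and RBCS1B lie next to each other on chromosome 5, in that order. How far each RBCS probe reads its own gene alone was not tested, because no probe sequences were used here. RBCS results therefore describe probes assigned to a gene, and the 26 RBCS probes are not 26 independent readings. Probes of any other single locus also share a gene and the same arrays, so counts over the 56 probes rest on 10 loci.

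The 2-day plants and the aerial part were hybridised on slide 1 and both leaf classes on slide 2, so each of the 2 main comparisons lies within a slide. Rankings over the 4 groups or the 8 arrays cross the slides, so slide and tissue cannot be told apart in them. Replicate arrays correlated at 0.994 to 0.996 over the probes tested, and 66.7% to 74.6% of probes were well above background. Marker genes were summed for each group, leaving out NRT2.1 of the root list and SAG12 and SAG13 of the senescence list, which did not pass the filter on dim probes. The summed linear level of 9 root genes ran from 212 to 231 in 2-day plants. It was 7.69 to 9.46 in the aerial part and 0.366 to 0.517 in the leaf groups. In the leaf groups the root-hair genes EXPA7, EXPA18, RHD6 and LRX1 stayed below the well-above-background threshold on every array. Most of the sum was PYK10, at log2 7.66 and 7.79 in 2-day plants and 3.23 and 2.93 in the aerial part. The other root genes stood at -4.96 or below in the aerial part, and all 9 were called lower there than at 2 days. The sum of the seed reserve list (7 genes) ran from 240.4 to 243 at 2 days and stayed at or below 0.133 in the 3 other groups. Most of the 2-day sum came from the enzyme genes ICL (log2 7.63 and 7.66) and MLS (5.35 and 5.26). The other genes of the list stood at -0.0019 or below at 2 days, and all 7 were called lower in the aerial part. The sum of 7 genes of dividing cells was 16.7 to 18.6 at 2 days and 6.62 to 7.6 in the aerial part. It was 8.8 to 8.81 in young leaves and 0.562 to 0.599 in mature leaves, where CYCB1;1 and GRF5 were not well above background. Of these genes 5 were called lower in the aerial part than at 2 days, ANT was called higher (0.81 ± 0.081) and GRF5 was not called. All 7 were called lower in mature than in young leaves. The sum over 5 senescence genes was 17 to 19.5 at 2 days and 9.57 to 11.2 in the aerial part. It was 5.2 to 5.41 in young leaves and 18.8 to 21.1 in mature leaves. The 2-day range overlapped that of mature leaves, and SAG21 stood at 4.07 and 3.79 in 2-day plants and at 1.51 and 1.23 in mature leaves. SAG21 was called lower in the aerial part than at 2 days (-3.38 ± 0.14), whereas the other 4 of the 5 genes were called higher. For 7 genes of the photosystems and their antennae, markers of green tissue, the sum was 1111 to 1326 at 2 days and 2215 to 2252 in the aerial part. It was 2079 to 2122 in young leaves and 3034 to 3099 in mature leaves.

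The 2-day plants had the lowest mean level in 54 of the 56 probes, a ranking that crosses the 2 slides. Within slide 1, the 21-day aerial part was called higher than the 2-day plants on 55 probes and lower on 0. Among all probes tested, 35.8% were called higher and 36.2% lower in this comparison. No member was lower at an unadjusted p below 0.05 either (0 probes, limma). The median difference over the members was 0.69, against -0.0022 over all probes. It was 0.43 over the 26 RBCS probes and 1.42 over the 30 probes of the other 6 loci, which ranged from 0.60 to 2.52. Under quantile normalization the 30 probes of the other 6 loci were all called higher, whereas 21 of the 26 RBCS probes changed sign, so that 31 member probes were higher and 5 lower. With spike-in scaling 30 member probes were called higher. Of the RBCS probes only 2 of the 5 for RBCS2B were among them, and 1 RBCS1B probe was called lower. In bulk tissue, fewer photosynthetic cells and less RNA per cell cannot be told apart. The root and seed reserve sums given above are higher in the 2-day plants and the photosystem sum is lower, and their part in these differences was not tested.

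**Figure D1:**
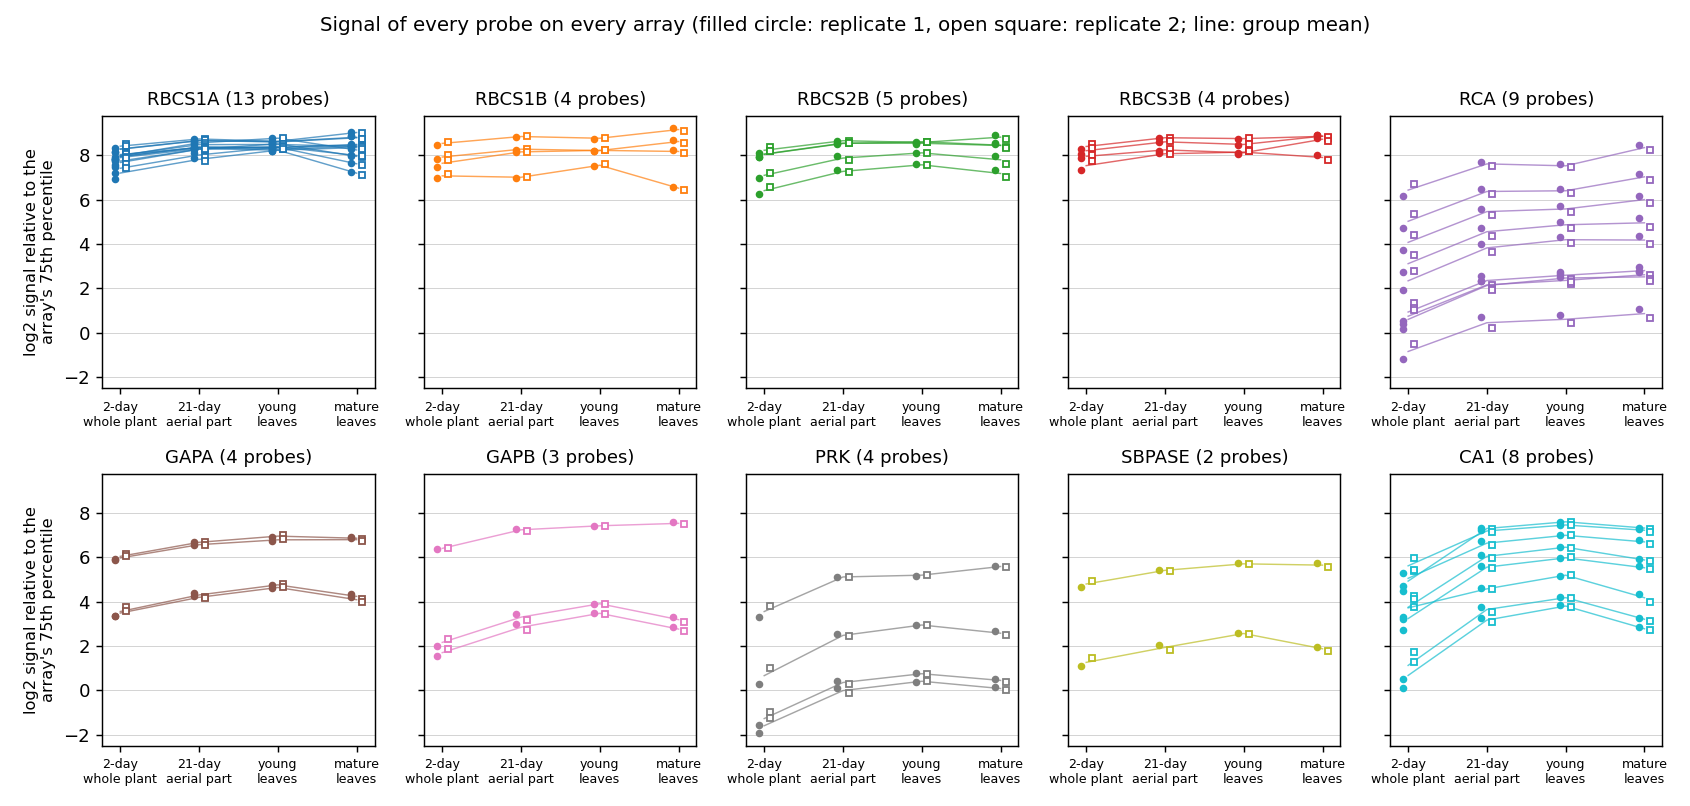
Mean log2 level of each of the 56 probes in the 4 groups, relative to the array's 75th percentile, with 1 panel per locus and 1 line per probe; points are the single arrays. With this scaling the 2-day plants are lowest on 54 of 56 probes, though the leaf groups lie on another slide. The lines of 1 locus part between young and mature leaves.

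Mature and young leaves gave no common direction. Of the 56 probes, 7 were called higher in mature leaves and 13 lower, while 36 were not called, against 34.2% of all probes called higher and 34.3% called lower. Neither share of the members, 7 and 13 of 56, exceeded that of all probes. The median difference was -0.091 over the members and 0.035 over all probes, and probes of 1 locus often pointed in opposite directions. The counts moved with the scaling: 2 higher and 29 lower under quantile normalization, 19 and 9 with the array median as the reference, and 0 and 52 with the spike-in controls. Without young replicate 1 or without mature replicate 1, 4 were higher, and 22 were lower when 2-day replicate 1 or 2-day replicate 2 was left out. The dividing-cell sum is lower in mature than in young leaves and the senescence and photosystem sums are higher, and their part was not tested.

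**Figure D2:**
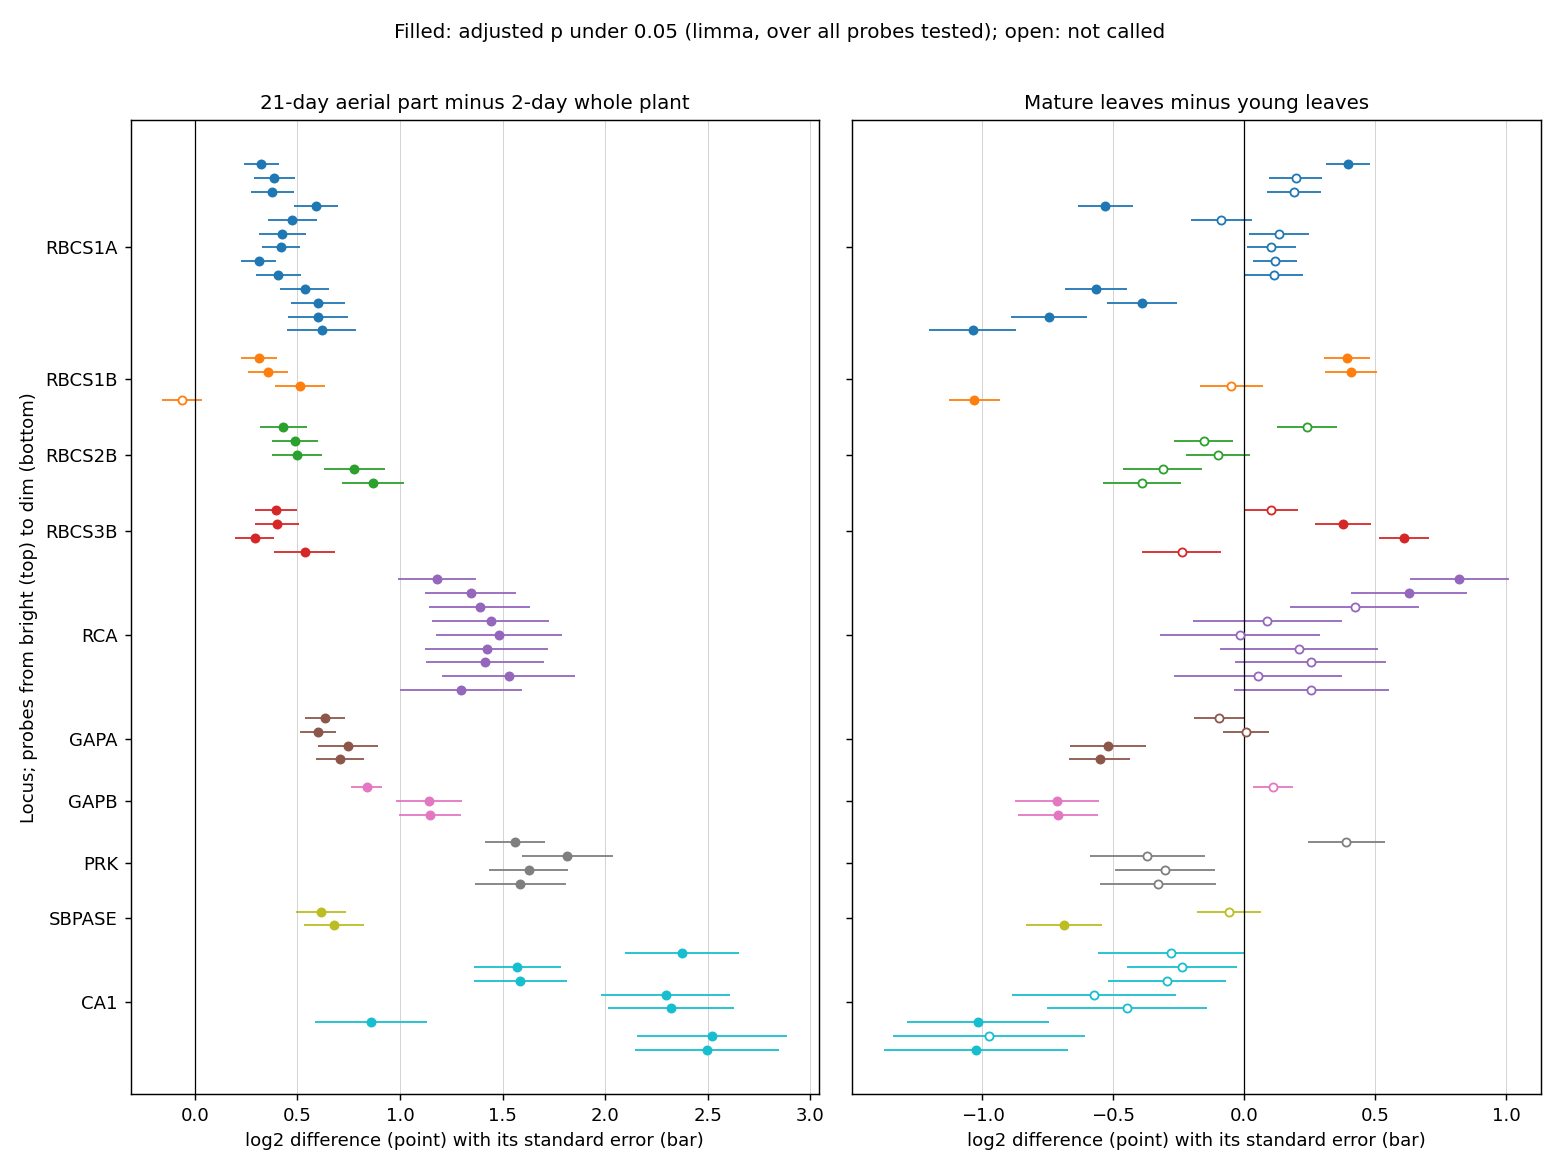
Log2 difference of each member probe with its standard error, for the aerial part against 2-day plants and for mature against young leaves, grouped by locus. In the first comparison 55 of 56 probes are called higher (31 under quantile normalization), and in the second 7 are called higher and 13 lower (2 and 29).

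The small-subunit loci held the brightest probes of the set and, by the median over a locus, had the smallest differences in the first comparison. On the brightest RBCS1A probe, A_84_P267340, the level was 8.33 and 8.503 in 2-day whole plants, 8.72 and 8.75 in the aerial part, 8.62 and 8.65 in young leaves, and 9.06 and 9.002 in mature leaves. The aerial part exceeded the 2-day plants by 0.32 ± 0.084 (adjusted p = 0.0137), or 1.25-fold, and mature leaves exceeded young leaves by 0.39 ± 0.084 (adjusted p = 0.0066). The dimmest RBCS1A probe, A_84_P806219, read 6.96 and 7.45 in 2-day whole plants, 7.89 and 7.75 in the aerial part, 8.20 and 8.28 in young leaves, and 7.27 and 7.13 in mature leaves. Here the aerial part was again higher, by 0.62 ± 0.17 (adjusted p = 0.016), but mature leaves were lower than young leaves by 2.05-fold, a difference of -1.04 ± 0.17 (adjusted p = 0.00199), with no overlap between these groups on either probe. All 13 RBCS1A probes were called higher in the aerial part than at 2 days, by 0.31 to 0.62 with a median of 0.43. Under quantile normalization, however, 0 were higher and 2 lower, with a median of -0.11, and with spike-in scaling 0 were higher and 0 lower, with a median of 0.14. Without aerial replicate 1 the call held for 4 of the 13, and without aerial replicate 2 for 7.

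Between the leaf classes 1 RBCS1A probe was called higher in mature leaves, 5 were called lower and 7 were not called. The counts were 0 higher and 11 lower under quantile normalization, 7 and 4 when the median set the scale, and 0 and 13 when the spike-in controls did. The differences ran from -1.04 to 0.39. The 5 probes called lower were A_84_P806219, A_84_P806178 (-0.75 ± 0.15), A_84_P806140 (-0.57 ± 0.12), A_84_P806095 (-0.53 ± 0.11) and A_84_P806180 (-0.39 ± 0.13). The group means followed 2 main orders across the 13 probes. From low to high, 7 probes had 2-day plants, young leaves, aerial part, mature leaves, and 5 had 2-day plants, mature leaves, aerial part, young leaves.

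RBCS1B gave the single probe that was not higher in the aerial part. On A_84_P167673 the level was 6.99 and 7.17 in 2-day whole plants, 6.99 and 7.04 in the aerial part, 7.51 and 7.59 in young leaves, and 6.59 and 6.45 in mature leaves. The aerial part and the 2-day plants overlapped, with a difference of -0.064 ± 0.097 (adjusted p = 0.576) and a 95% interval of -0.30 to 0.17. Mature leaves were lower than young leaves by 2.04-fold, at -1.03 ± 0.097 (adjusted p = 2.01e-04). Mature leaves were also lower than 2-day plants by 0.55 on the log2 scale (adjusted p = 0.00199), but these groups lie on different slides. The brightest RBCS1B probe, A_84_P805480, had levels of 8.46 and 8.62 in 2-day whole plants, 8.83 and 8.87 in the aerial part, 8.75 and 8.79 in young leaves, and 9.22 and 9.11 in mature leaves. On it the 2-day arrays were the lowest of the 8 and the mature arrays the highest, whereas on A_84_P167673 the mature arrays were the lowest. There the aerial part was higher by 0.31 ± 0.087 (adjusted p = 0.0187) and mature leaves exceeded young leaves by 0.39 ± 0.087 (adjusted p = 0.00781). Of the remaining RBCS1B probes, A_84_P805438 was higher in both comparisons (0.35 ± 0.098 and 0.41 ± 0.098), and A_84_P805459 was called higher in the aerial part (0.51 ± 0.12) but not between the leaf classes (-0.049 ± 0.12, adjusted p = 0.734). Under quantile normalization 0 of the 4 RBCS1B probes were higher in the aerial part and 2 were lower, and between the leaf classes 0 were higher and 3 lower. The count higher in the aerial part fell from 3 to 1 without 2-day replicate 1, aerial replicate 1 or aerial replicate 2.

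All 5 RBCS2B probes were called higher in the aerial part, by 0.43 to 0.87, against 1 under quantile normalization. None was called between the leaf classes (0 higher, 0 lower with limma), and at an unadjusted p below 0.05 there were 0 higher and 1 lower. The count lower in mature leaves was 5 under quantile normalization, 5 with spike-in scaling, 3 with normexp background correction and 2 without mature replicate 1. The brightest, A_84_P848694, read 8.09 and 8.37 in 2-day whole plants, 8.67 and 8.66 in the aerial part, 8.55 and 8.62 in young leaves, and 8.91 and 8.74 in mature leaves. The difference was 0.43 ± 0.12 (adjusted p = 0.0158) for the aerial part against 2-day plants and 0.24 ± 0.12 (adjusted p = 0.112) for mature against young leaves. The dimmest, A_84_P805421, read 6.26 and 6.56 in 2-day whole plants, 7.33 and 7.23 in the aerial part, 7.59 and 7.56 in young leaves, and 7.36 and 7.01 in mature leaves. It had the largest small-subunit difference in the first comparison, 0.87 ± 0.15 (adjusted p = 0.00241), and -0.39 ± 0.15 (adjusted p = 0.0561) in the second. On both probes the 2-day arrays were the lowest of the 8, but the mature arrays lay above the young arrays on the brightest and below them on the dimmest. All 4 RBCS3B probes were likewise called higher in the aerial part, by 0.29 to 0.54, and under quantile normalization 0 were higher and 1 lower. Without aerial replicate 1 or aerial replicate 2 the count was 0 of 4, and without 2-day replicate 1 it was 1. On A_84_P286650 the level was 7.88 and 8.03 in 2-day whole plants, 8.22 and 8.28 in the aerial part, 8.06 and 8.18 in young leaves, and 8.80 and 8.65 in mature leaves, and mature leaves exceeded young leaves by 0.61 ± 0.095 (adjusted p = 0.00178). The mature arrays were above the other 6, although under spike-in scaling all 4 RBCS3B probes were called lower in mature than in young leaves. A_84_P805465 was also called higher in mature leaves (0.38 ± 0.11), and the brightest RBCS3B probe, A_84_P806129, was not (0.10 ± 0.10, adjusted p = 0.409). The count of 2 higher in mature leaves fell to 1 without young replicate 1, young replicate 2 or mature replicate 1. The dimmest, A_84_P856027, was 0.54 ± 0.15 in the first comparison and -0.24 ± 0.15 (adjusted p = 0.197) in the second.

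The RBCS probes lay in the top 1 percent of signals on each array, from the 99.1th percentile upward, and 15 to 24 of each array's 100 brightest probes were members. Before any scaling, the highest processed signal over the 8 arrays was 1.22 to 3.59 times the lowest on the RBCS probes, with a median of 1.74, and 1.74 to 11.2 times on the probes of the other 6 loci, with a median of 3.72. On the brightest RBCS1A probe, A_84_P267340, signals ran from 261150 to 363914 over the 8 arrays, a 1.39-fold span, while the dimmest, A_84_P806219, spanned 3.59-fold. On RBCS3B probe A_84_P286650 the span was 1.22-fold. The dimmest CA1 probe, A_84_P809517, spanned 11.2-fold. Over the same arrays the 75th percentile of the signal fell from 1059 and 959.9 in 2-day plants to 489.8 and 520.4 in mature leaves, so a probe with a constant signal gains in scaled level. The scanner marked 0 spots as saturated. Among the 99 other probes above a mean signal of 150000, 91 had a positive difference in each comparison, with medians of 0.77 and 0.58, while the 24 members above that signal had medians of 0.43 and 0.10. Whether the bright probes respond less than proportionally to their RNA was not tested.

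**Figure D3:**
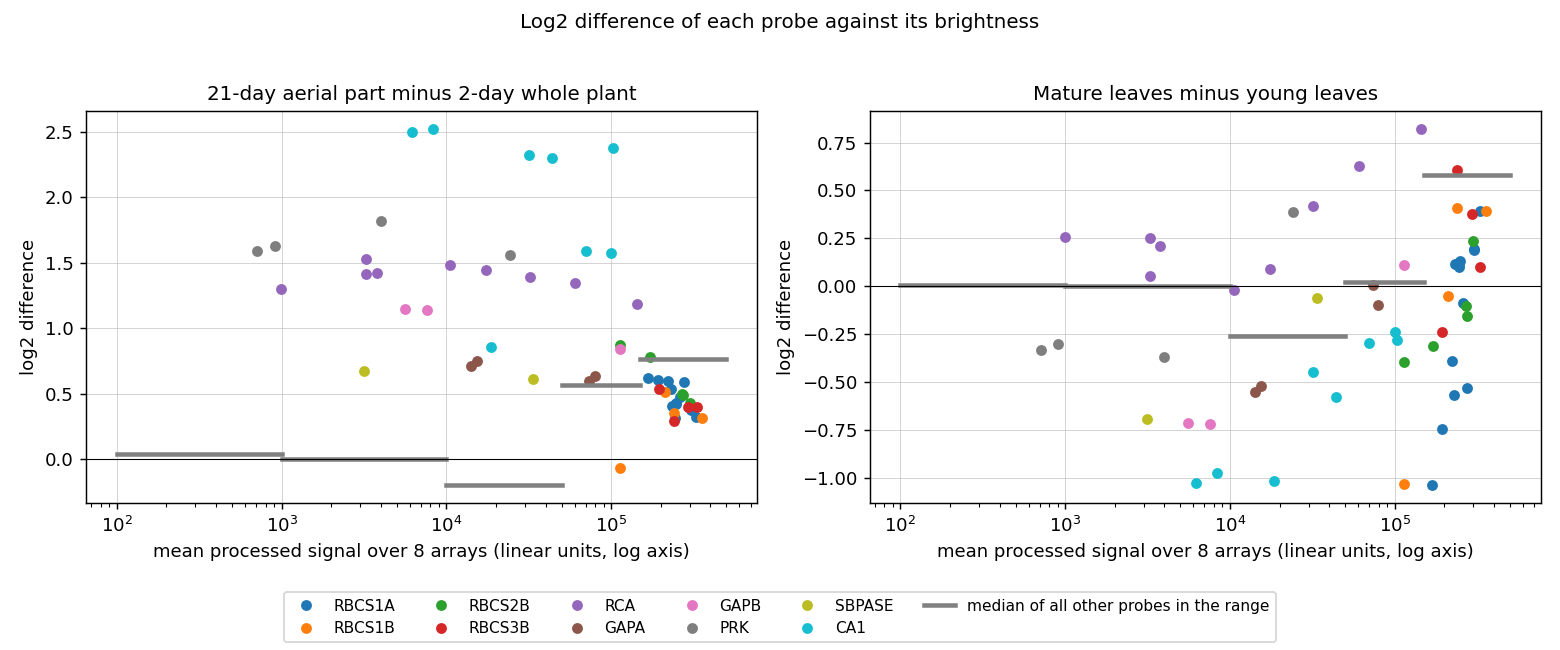
Log2 difference of each member probe against its mean processed signal (log axis) in the 2 main comparisons, coloured by locus, with the median of other probes by signal bin as a line. RBCS probes sit toward the right end, with differences of at most 0.87 in the first comparison.

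Rubisco activase was higher in the aerial part on all 9 of its probes, by 1.18 to 1.53 with a median of 1.41. The brightest, A_84_P270930, read 6.16 and 6.71 in 2-day whole plants, 7.70 and 7.53 in the aerial part, 7.60 and 7.46 in young leaves, and 8.45 and 8.25 in mature leaves. The aerial part exceeded 2-day plants by 1.18 ± 0.19 (adjusted p = 0.00183), or 2.27-fold, and mature leaves exceeded young leaves by 0.82 ± 0.19 (adjusted p = 0.00922), or 1.77-fold. The 2-day arrays were below all 6 arrays of the 21-day material, and the mature arrays above all others. A second probe, A_84_P807280, was also called higher in mature leaves, at 0.63 ± 0.22 (adjusted p = 0.0442). The count of 2 fell to 1 with the replicate block, without the filter on dim probes, and without any 1 of the aerial, young and mature arrays. It was 0 under quantile normalization and with spike-in scaling, which called 5 RCA probes lower. The 7 other RCA probes were not called between the leaf classes and ranged from -0.016 to 0.42, with standard errors of 0.25 to 0.32. The dimmest, A_84_P807334, read -1.20 and -0.49 in 2-day whole plants, 0.70 and 0.21 in the aerial part, 0.78 and 0.44 in young leaves, and 1.06 and 0.67 in mature leaves, and its arrays of young and mature leaves overlapped. Its difference was 1.297 ± 0.30 (adjusted p = 0.00824) in the first comparison and 0.26 ± 0.30 (adjusted p = 0.47) in the second. The group means rose from 2-day plants through the aerial part and young leaves to mature leaves on 7 of the 9 probes, an order in which no neighbours but 2-day plants and the aerial part were called different on 6 of them.

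The dehydrogenase subunits of the reduction phase were higher in the aerial part on all 7 of their probes. GAPA differed by 0.60 to 0.75 on 4 probes and GAPB by 0.84 to 1.15 on 3. On the brightest GAPA probe, A_84_P19306, the level was 5.94 and 6.16 in 2-day whole plants, 6.68 and 6.67 in the aerial part, 6.92 and 6.99 in young leaves, and 6.91 and 6.81 in mature leaves. The difference was 0.63 ± 0.098 (adjusted p = 0.00153) in the first comparison and -0.095 ± 0.098 (adjusted p = 0.418) in the second, where the lowest young array and the highest mature array stood at 6.92 and 6.91. The dimmest GAPA probe, A_84_P808741, read 3.37 and 3.60 in 2-day whole plants, 4.25 and 4.14 in the aerial part, 4.60 and 4.68 in young leaves, and 4.19 and 3.99 in mature leaves. It was higher in the aerial part by 0.71 ± 0.12 (adjusted p = 0.00199) and lower in mature than in young leaves, at -0.55 ± 0.12 (adjusted p = 0.00629). Its 2-day arrays were the lowest of the 8 and its young arrays the highest. A_84_P868550 was called lower in mature leaves as well (-0.52 ± 0.15), with 1 of the 2 calls lost without young replicate 1, young replicate 2 or mature replicate 2, and both with median scaling. A_84_P808747 was not called (0.0083 ± 0.088, adjusted p = 0.939).

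GAPB parted in the same manner. The brightest probe, A_84_P21687, read 6.40 and 6.41 in 2-day whole plants, 7.28 and 7.20 in the aerial part, 7.43 and 7.42 in young leaves, and 7.58 and 7.48 in mature leaves, and its difference between aerial part and 2-day plants, 0.84 ± 0.075 (adjusted p = 1.43e-04), had the smallest standard error of the 56. Its mature-to-young difference was 0.11 ± 0.075 (adjusted p = 0.232), with a 95% interval of -0.073 to 0.29. The dimmest, A_84_P811397, read 1.53 and 1.87 in 2-day whole plants, 2.99 and 2.70 in the aerial part, 3.50 and 3.45 in young leaves, and 2.85 and 2.68 in mature leaves. It was higher in the aerial part by 1.15 ± 0.15 (adjusted p = 7.95e-04) and lower in mature leaves, at -0.71 ± 0.15 (adjusted p = 0.00672), and A_84_P811396 gave 1.14 ± 0.16 and -0.72 ± 0.16, both called. On A_84_P811397 both mature arrays lay below both young arrays, while on A_84_P21687 they lay above them.

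SBPASE had 2 probes, both called higher in the aerial part, though 0 were called when the spike-in controls set the scale. A_84_P14677 read 4.65 and 4.95 in 2-day whole plants, 5.45 and 5.38 in the aerial part, 5.74 and 5.68 in young leaves, and 5.74 and 5.56 in mature leaves, a difference of 0.62 ± 0.12 (adjusted p = 0.00455), and the leaf classes overlapped (-0.06 ± 0.12, adjusted p = 0.684). A_84_P813537 read 1.08 and 1.44 in 2-day whole plants, 2.04 and 1.84 in the aerial part, 2.59 and 2.54 in young leaves, and 1.97 and 1.78 in mature leaves. It differed by 0.68 ± 0.15 (adjusted p = 0.00639) in the first comparison and was lower in mature leaves, at -0.69 ± 0.15 (adjusted p = 0.00637). On this probe the young arrays were the highest of the 8 and the 2-day arrays the lowest. Phosphoribulokinase differed more between the aerial part and 2-day plants, by 1.56 to 1.82 on its 4 probes. The brightest, A_84_P18150, read 3.33 and 3.78 in 2-day whole plants, 5.11 and 5.12 in the aerial part, 5.18 and 5.22 in young leaves, and 5.60 and 5.57 in mature leaves, which is 2.95-fold higher in the aerial part (1.56 ± 0.15, adjusted p = 1.81e-04). Mature leaves were above young leaves on this probe by 0.39 ± 0.15 (adjusted p = 0.0544), which missed the threshold, although the mature arrays were the highest of the 8. The dimmest, A_84_P857032, read -1.94 and -1.25 in 2-day whole plants, 0.099 and -0.12 in the aerial part, 0.38 and 0.44 in young leaves, and 0.15 and 0.015 in mature leaves, a difference of 1.59 ± 0.22 (adjusted p = 0.001) in the first comparison and -0.33 ± 0.22 (adjusted p = 0.23) in the second. A_84_P848652 had the largest PRK difference, 1.82 ± 0.22 (adjusted p = 5.37e-04). No PRK probe was called between the leaf classes (0 with limma, and 1 higher at an unadjusted p below 0.05). The count higher was 1 under normexp background correction, quantile normalization and median scaling. It was also 1 with the deposited values, with detection required on all 8 arrays and with an intensity trend. A fit of only the arrays compared, or one without 2-day replicate 1 or 2-day replicate 2, called 1 higher and 3 lower, and spike-in scaling called 4 lower.

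CA1 had the largest differences of the set. All 8 probes were called higher in the aerial part, by 0.86 to 2.52 with a median of 2.31, and young leaves had the highest mean on all 8. The brightest, A_84_P809513, read 5.28 and 5.95 in 2-day whole plants, 7.25 and 7.13 in the aerial part, 7.46 and 7.46 in young leaves, and 7.29 and 7.15 in mature leaves. It differed by 1.57 ± 0.21 (adjusted p = 8.12e-04), or 2.97-fold, in the first comparison and by -0.24 ± 0.21 (adjusted p = 0.349) in the second. On A_84_P863231 the first difference was 2.37 ± 0.28 (adjusted p = 4.67e-04), or 5.18-fold, and the second -0.28 ± 0.28 (adjusted p = 0.401). The dimmest probe, A_84_P809517, read 0.088 and 1.26 in 2-day whole plants, 3.27 and 3.07 in the aerial part, 3.85 and 3.77 in young leaves, and 2.85 and 2.71 in mature leaves, a difference of 2.496 ± 0.35 (adjusted p = 0.00102), or 5.64-fold, and mature leaves were lower than young leaves, at -1.03 ± 0.35 (adjusted p = 0.04). On both the brightest and the dimmest probe all 2-day arrays lay below the other 6, and the young arrays were the highest. The lowest difference in the first comparison, 0.86 ± 0.27 (adjusted p = 0.029), came from A_84_P850677, on which mature leaves were also lower than young leaves, at -1.02 ± 0.27 (adjusted p = 0.0163). All 8 probes had a lower mean in mature than in young leaves, with 2 of them called. Leaving out a 2-day or an aerial array moved that count while the differences stayed the same, and the part of the fit responsible was not tested. The count was 7 in a fit of only the arrays compared. It was 0 without young replicate 1, young replicate 2 or mature replicate 2, 1 without mature replicate 1 and 8 when spike-ins set the scale.

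The 2-day replicates differed on the members in a single direction. Replicate 1 was below replicate 2 on 56 of 56 probes, against 53.6% of all probes tested. The median gap was -0.34 over the members, -0.98 for CA1, -0.74 for RCA and -0.65 for PRK, while the median absolute gap over all probes was 0.149. On CA1 probe A_84_P809517 the 2 arrays stood at 0.088 and 1.26. Without 2-day replicate 1, 46 member probes were called higher in the aerial part with a median difference of 0.52, and without 2-day replicate 2, 55 were called with a median of 0.85. The CA1 median was 1.79 and 2.83 in these 2 fits. In mature leaves replicate 1 was above replicate 2 on 56 of 56 probes (55.2% of all probes) with a median gap of 0.15. RCA was higher in replicate 1 on 9 of 9 probes in the aerial part, in young leaves and in mature leaves, with median gaps of 0.36, 0.28 and 0.36. What sets the replicates apart was not tested.

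**Figure D4:**
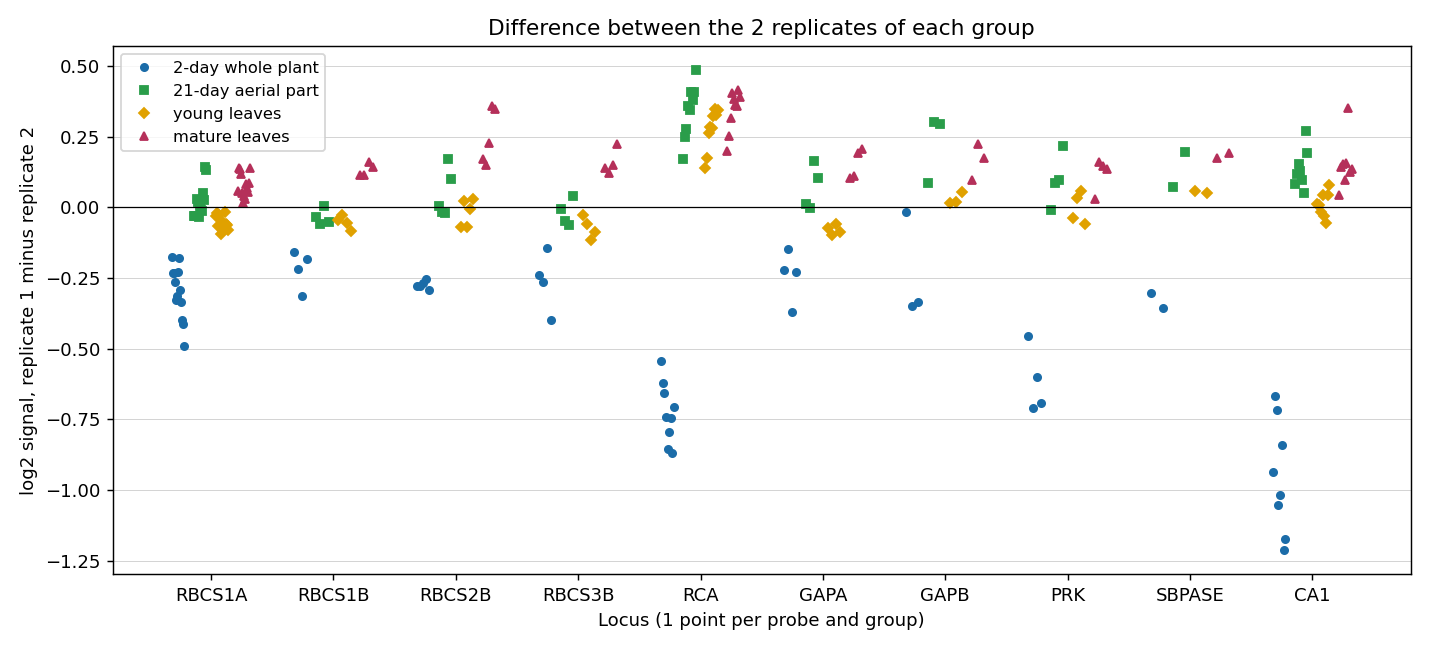
Replicate 1 minus replicate 2 of each group, in log2 units, for every member probe by locus, with 0 marked. All 56 probes are below 0 in 2-day plants and above 0 in mature leaves, and CA1 and RCA are farthest from 0 in 2-day plants.

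The other pairs of groups cross the 2 slides, so slide and tissue cannot be told apart in them, and they share arrays with the main comparisons. Young leaves were called higher than 2-day plants on 52 member probes and lower on 0 (35.5% and 34.5% of all probes), with 0 lower at an unadjusted p below 0.05 too. Mature leaves were called higher than 2-day plants on 48 and lower on 1 (39.3% and 42.5%). The aerial part was called lower than young leaves on 5 probes and higher on 0 (16.1% and 17.8% of all probes), with 9 lower and 0 higher at an unadjusted p below 0.05. Against mature leaves the aerial part was higher on 3 and lower on 8 (29.1% and 26.1%). Young leaves had the highest mean on 31 probes, mature leaves on 24 and the aerial part on 1.

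Most other genes of the Calvin-Benson cycle were also higher in the aerial part. With the brightest probe standing for each locus, 34.4% of 20629 loci were called higher in the aerial part and 39.8% lower, with a median of -0.066. Among the members this choice moved the leaf counts to 3 higher and 0 lower. The rank correlation of brightness with the mature-to-young difference was 0.80 for RBCS1A, 0.55 for RCA and 0.95 for CA1. Dimmer probes of the listed genes were not examined and may differ from the brightest. Of 16 other genes of the cycle, 11 were called higher, 2 lower and 3 were not called, with a median of 0.61. CP12-2 (AT3G62410), a small protein that binds PRK and the dehydrogenase into an inactive complex, had levels of -0.18 and 0.57 in 2-day whole plants, 3.85 and 3.99 in the aerial part, 3.63 and 3.98 in young leaves, and 4.45 and 4.44 in mature leaves. It rose by 3.72 ± 0.25 (adjusted p = 4.63e-05), above every member. TKL2, a transketolase, fell by 1.83 ± 0.10 (adjusted p = 2.13e-05), and FBA3, a plastid aldolase, fell by 1.41 ± 0.085 (adjusted p = 3.08e-05). Between the leaf classes 35.2% of loci were called higher in mature leaves and 35.1% lower, with a median of 0.041. In the same 16 genes 3 were higher, 4 lower and 9 not called, with a median of 0.17. Among them CP12-3 was higher in mature leaves by 1.57 ± 0.08 (adjusted p = 1.95e-05), FBA2 by 0.46 ± 0.14 and CP12-1 by 0.42 ± 0.082, while the phosphoglycerate kinase PGK2 was lower, at -1.23 ± 0.17 (adjusted p = 0.00102).

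Genes for folding and assembling Rubisco were called in both directions. Of 10, 3 were called higher in the aerial part, 5 lower and 2 were not called, with a median of -0.22. RBCX1, an assembly chaperone, had levels of -2.69 and -2.43 in 2-day whole plants, 2.67 and 3.55 in the aerial part, 2.498 and 3.43 in young leaves, and 2.93 and 3.92 in mature leaves and rose by 5.67 ± 0.48 (adjusted p = 1.14e-04). Its relative RBCX2 rose by 1.65 ± 0.084 (adjusted p = 1.67e-05) and RAF2 by 0.53 ± 0.094 (adjusted p = 0.00272). CPN60B2, a chaperonin subunit, fell by 2.20 ± 0.20 (adjusted p = 1.47e-04). In mature against young leaves 1 was higher, 7 were lower and 2 were not called, with a median of -0.68. CPN60B2 fell by 3.15 ± 0.20 (adjusted p = 4.00e-05) and CPN60A by 2.30 ± 0.11 (adjusted p = 1.40e-05), while RBCX2 was higher by 0.53 ± 0.084 (adjusted p = 0.00188). The level of CPN60A was 4.32 and 4.46 in 2-day whole plants, 2.99 and 3.06 in the aerial part, 3.94 and 4.02 in young leaves, and 1.79 and 1.56 in mature leaves. The sum of the dividing-cell genes falls between the same leaf groups, and its part in this result was not tested.

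Photorespiration, which salvages the product of Rubisco's reaction with oxygen, was higher in the aerial part on 10 of 11 genes measured, lower on 0 (also 0 at an unadjusted p below 0.05) and not called on 1, with a median of 1.61. A listed gene, GLDT, was not matched to a probe. The aminotransferase GGT1 rose by 2.49 ± 0.14 (adjusted p = 2.61e-05) and hydroxypyruvate reductase HPR1 by 2.07 ± 0.19 (adjusted p = 1.78e-04). In mature leaves 7 were higher than in young leaves, 2 lower and 2 not called, with a median of 0.82. GGT1 was higher by 1.64 ± 0.14 (adjusted p = 1.47e-04) and AGT1 by 1.13 ± 0.15 (adjusted p = 8.82e-04), while GLDH1 (-0.68 ± 0.10) and GLYK (-0.34 ± 0.099) were lower. GGT1 had levels of 4.62 and 5.0 in 2-day whole plants, 7.40 and 7.20 in the aerial part, 6.67 and 6.56 in young leaves, and 8.29 and 8.22 in mature leaves.

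Among the 5 other beta carbonic anhydrases, 3 were higher in the aerial part, 1 lower and 1 not called, with a median of 0.56. Between the leaf classes 2 were higher in mature leaves, 1 lower and 2 not called, with a median of 0.10. CA3, which unlike CA1 is not a chloroplast enzyme, had levels of -3.58 and -3.27 in 2-day whole plants, -1.06 and -1.45 in the aerial part, -4.68 and -4.25 in young leaves, and -0.0018 and -0.063 in mature leaves. It rose by 2.17 ± 0.20 (adjusted p = 1.74e-04) in the first comparison and was higher in mature leaves by 4.43 ± 0.20 (adjusted p = 1.34e-05), where CA1 had its lower means. CA6 gave 1.68 ± 0.083 and 2.12 ± 0.083, and CA5 -0.41 ± 0.13 and -0.38 ± 0.13. Of 7 transcription factors known to act on photosynthesis genes, 3 were higher in the aerial part, 2 lower and 2 not called, with a median of -0.27. HY5, a light-signalling factor of seedlings, fell by 2.14 ± 0.32 (adjusted p = 0.00131) and CGA1, a GATA factor, by 1.71 ± 0.27 (adjusted p = 0.00166). Mature leaves had 5 of the 7 higher, 0 lower (also 0 at an unadjusted p below 0.05) and 2 not called, with a median of 0.83, among them GBF3 (2.45 ± 0.28) and GLK1 (1.12 ± 0.097), a Golden2-like activator of chloroplast genes.

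**Figure D5:**
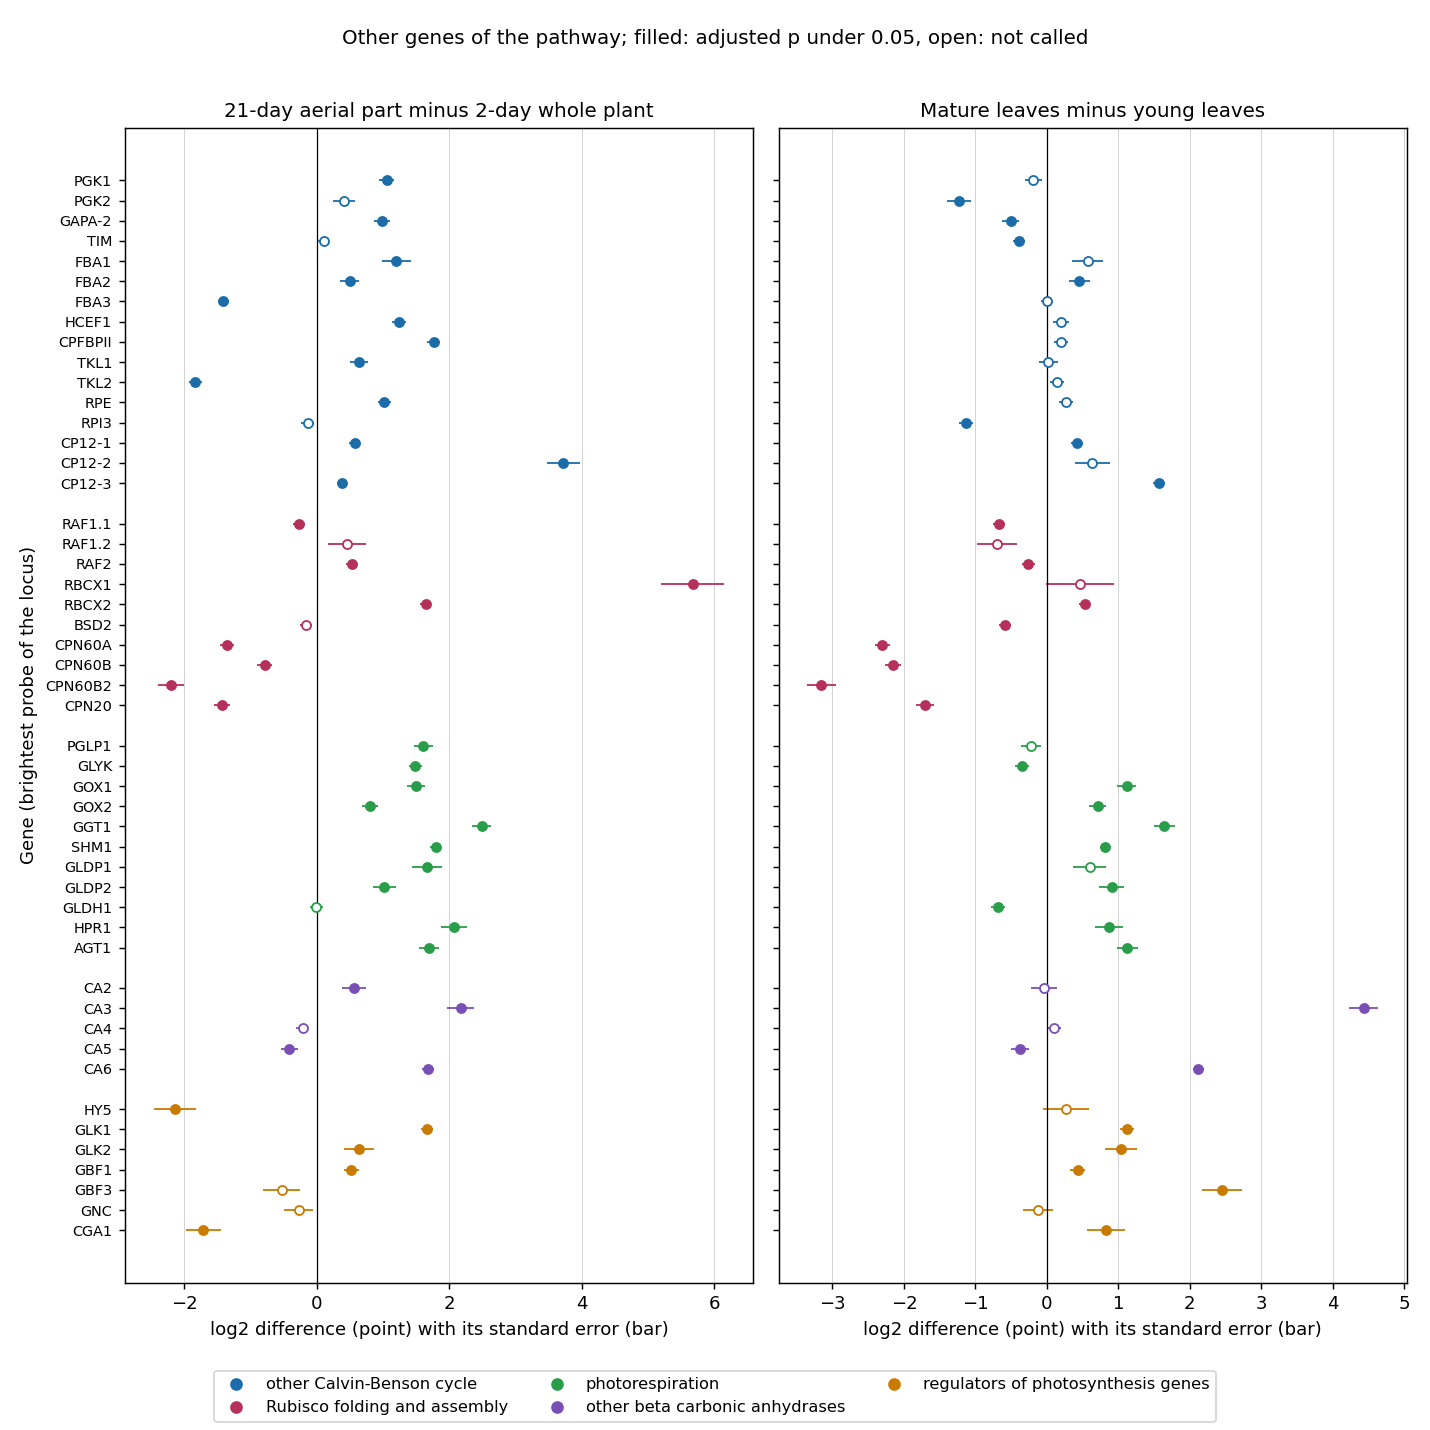
Log2 difference of the brightest probe of each gene of the pathway lists, with its standard error, in the 2 main comparisons. Filled points are called at an adjusted p below 0.05. Photorespiration genes are higher in the aerial part on 10 of 11, and Rubisco folding and assembly genes are lower in mature leaves on 7 of 10.

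The mean centred profile of the RBCS probes over the 8 arrays had a root mean square of 0.221 log2 units around 0. Of 17111 other loci well above background on all arrays, those nearest to it were AT3G56830 at a root mean square distance of 0.047, AT1G27690 at 0.057 and CPSF73-I (AT1G61010) at 0.063. For the probes of the other 6 loci, whose profile had a root mean square of 0.712, the nearest were PSAL (AT4G12800) at 0.075, AT3G19000 at 0.083 and PSAH-1 (AT3G16140) at 0.105. PSAL and PSAH-1 encode subunits of photosystem I. Many more of the 17111 loci correlated highly with each profile, so the named loci are not particular to its shape. Correlation ignores the size of the change, and loci near a profile by distance were not counted. Both 2-day arrays are the lowest 2 of the 8 in each of these profiles.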

How the data were processed

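The deposited scanner files hold intensity values on a linear scale, read per the file headers with Agilent Feature Extraction 10.10.1.1 (protocol GE1_1010_Sep10, design 021169, grid build TAIR10). In them the processed signal is background-subtracted within each array. The deposited value table holds the same intensities times 1 factor per array (2.08 to 4.44), whose basis is not given in the sources used here. The factor was lowest where the 75th percentile of the signal was highest (2.08 at 1059, 2-day replicate 1). It was highest where that percentile was lowest (4.44 at 489.8, mature replicate 1). The table served as an alternative, but its scaling is close to the main one.

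Control spots and outlier spots (5 to 13 an array) were left out, and repeated spots of a probe were averaged. The 75th percentile of log2 signal of the non-control probes was subtracted in each array. Probes were kept where both arrays of some group had them well above background (33313). A limma 3.58.1 model (R 4.3.3, lmFit and eBayes, 2-sided) with a mean per group was fitted over all 8 arrays, with 4 residual and 2.02 prior degrees of freedom, and was checked on simulated data. Alternatives covered the background correction, scaling, dim-probe filter, source of values, 1 probe per locus, variance model, arrays fitted, blocks and single arrays left out. Precision is limited by the number of arrays, with a median standard error of 0.119. P-values set each difference against the spread between replicates, pooled over all groups and moderated across probes. Each group has 2 biological replicates. A probe's brightness within a locus is its mean level over the 8 arrays.

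The members and gene lists were chosen with earlier results of these data known. All member probes are reported. From each pathway list the 2 called genes with the largest difference in each comparison are named, with those called against the list's majority. Neighbouring genes follow a RefSeq table of assembly TAIR10.1, so no coordinates are given, and no sequences were used here.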

Additional observations from a re-analysis of the deposited data

How the results depend on the processing

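Member probes called higher in the aerial part than at 2 days numbered 55, and 31 under quantile normalization, 30 with spike-in scaling and 10 of 10 with 1 probe per locus. Those called lower numbered 5 under quantile normalization and 1 with spike-in scaling. In mature against young leaves the count higher was 2 under quantile normalization, 19 with median scaling, 0 with spike-in scaling and 3 with 1 probe per locus, and the count lower was 29, 9, 52 and 0 in the same order, and 21 in a fit of only the arrays compared. Over all probes, spike-in scaling gave 7515 higher in the first comparison and 2724 higher and 23271 lower in the second, normexp background correction gave 17695 higher in the second, and 1 probe per locus gave 7185 higher in the first and 7386 higher and 7319 lower in the second, with fewer features tested. The median of all probes shifted by -0.29 and -0.91 with spike-in scaling in the 2 comparisons, and in the second by 0.26 with median scaling and 0.24 with normexp; the cause was not tested. Leaving out 1 array at a time gave 38 to 55 members higher in the first comparison and, in the second, 4 to 8 higher and 9 to 22 lower.

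Directions turned for some probes named in the report. Under quantile normalization the first difference was -0.10 on the brightest RBCS1A probe, -0.051 for RBCS1B, -0.097 for RBCS2B and -0.058 for RBCS3B, and -0.089 on the dimmest RBCS3B probe. The second was -0.17, -0.22, -0.23 and -0.41 on the brightest probes of these genes and -0.13 for GAPB. With spike-in scaling the second difference was -0.52, -0.52, -0.67, -0.81, -0.089, -0.80 and -0.52 on the brightest RBCS1A, RBCS1B, RBCS2B, RBCS3B, RCA, GAPB and PRK probes, and -0.66 on the dimmest RCA probe. With median scaling it was 0.019 on the dimmest RBCS3B probe and 0.16, 0.20 and 0.022 on the brightest GAPA, SBPASE and CA1 probes. Leaving out 1 array gave -0.15 to 0.027 for the first difference of the dimmest RBCS1B probe and -0.15 to 0.027 for the second of the brightest SBPASE probe.

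Of the pathway lists, the other Calvin-Benson cycle genes gave 10 higher and 2 lower in mature leaves under median scaling, and 1 higher and 13 lower when spike-ins set the scale, which left 1 photorespiration gene, 0 assembly genes and 1 regulator higher there. The deposited value table, whose scaling is close to the main one, the filters on dim probes and an intensity trend kept each count of members within 1.5 times. The slide as a block could not change the fit, because each group lies on 1 slide, so its equal counts are no check. With the replicate block the members gave 55 higher and 0 lower in the first comparison and 6 and 12 in the second. The deviations of same-numbered arrays correlated at 0.26 to 0.35 over the 3 pairs of 21-day groups and at -0.087 to -0.013 over the 3 pairs with 2-day plants. No label says that a number marks a shared plant, batch or day and each group has only 2 arrays, so the numbers were not taken as pairs; whether the 21-day groups share a replicate effect was not tested further.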
